A study of Mus musculus with 18 samples.

Results

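The genes described here encode the tyrosine kinases that act first after the T cell receptor (TCR) is engaged. They are Zap70 and Syk of the Syk family, Lck and Fyn of the Src family, Txk and Tec of the Tec family, and Csk, which restrains the Src family. They were listed by symbol as kinases of the proximal pathway, and are 7 of the 23337 genes in the table, of which 15582 had at least 1 count. All 7 passed the filter on low counts that left 11118 genes for testing.

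Invariant natural killer T (iNKT) cells are T lymphocytes whose TCR recognizes lipids presented by CD1d, and in the thymus they differentiate into NKT1, NKT2 and NKT17 cells. The 6 groups were NKT1, NKT2 and NKT17 cells sorted from the thymus of WT mice and of SKG mice, all on a BALB/c background, with 3 RNA-seq libraries each. SKG mice carry a hypomorphic Zap70 allele, a point mutation that arose spontaneously and weakens the docking of the kinase. The 2 genotypes descended from one cross of BALB/cJ with SKG mice but were bred as separate F3 lines, so genotype cannot be told apart from line. No treatment or age was given in the labels, and whether a library holds 1 or several animals was not stated. The sort used the CD1d tetramer for all cells, CD49a and low ICOS for NKT1, high ICOS, CD4 and TCRβ for NKT2, and high ICOS with Sdc-1 for NKT17.

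In resting T cells, Csk phosphorylates the C-terminal tyrosine of Lck and Fyn and keeps them inactive. After TCR engagement, active Lck phosphorylates the ITAM motifs of the CD3 and ζ chains, ZAP70 docks on them through its tandem SH2 domains, and ZAP70 in turn phosphorylates the adaptors LAT and SLP-76. Tec family kinases are recruited to that adaptor complex and activate phospholipase Cγ, whereas SYK performs the docking step in B cells and in early thymocytes.

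The total count per library was 4391029 to 8895917. Levels are CPM, the counts of a gene divided by a library size scaled with TMM, and 1 CPM corresponded to 4.54 to 8.28 counts of a library. The sorted populations carried the markers of their labels: the summed level of 6 NKT17 markers lay between 2382.5 and 2482.8 CPM in the NKT17 libraries, against at most 14.3 in any other library, and the 6 NKT1 markers summed to 3972.7 to 5296.0 CPM in NKT1 libraries against at most 422.1 elsewhere. The NKT2 markers summed to 1693.4 to 2558.9 CPM in NKT2 libraries but also to 1516.8 to 1822.9 in NKT17 libraries. Itga1 (CD49a), Icos, Cd4 and Sdc1 are on these lists and encode sort markers, so their agreement with the labels follows from the sort. In these bulk samples, fewer cells with a transcript and less of it per cell cannot be told apart. A gene was called, at the study's thresholds, when it changed by at least 1.5-fold and had an adjusted p below 0.1 in edgeR's quasi-likelihood test, where Benjamini-Hochberg adjustment ran over the 11118 genes.

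The Zap70 gene lies on chromosome 1 (NCBIM37, the mm9 assembly; 36818695 to 36839663, plus strand). Txk (73087217 to 73144012) and Tec (73146957 to 73259722) are neighbors on the minus strand of chromosome 5, separated by 2944 bases. These 3 members had an edgeR adjusted p under 0.1 for SKG against WT averaged over the subsets, although only Tec was called. The 250 bases before their transcription starts are therefore shown, taken from RefSeq and placed on NCBIM37 by exact match. RefSeq lists 3 starts for Zap70, 2 for Txk and 1 for Tec. Of those placed, the start nearest the annotated gene start was used. The Tec window reaches 35 bases into the annotated gene. The sequences read 5′ to 3′ on the coding strand, with the ETS core GGAAG, on either strand, in capitals.
Zap70, chr1:36818393-36818642, plus strand: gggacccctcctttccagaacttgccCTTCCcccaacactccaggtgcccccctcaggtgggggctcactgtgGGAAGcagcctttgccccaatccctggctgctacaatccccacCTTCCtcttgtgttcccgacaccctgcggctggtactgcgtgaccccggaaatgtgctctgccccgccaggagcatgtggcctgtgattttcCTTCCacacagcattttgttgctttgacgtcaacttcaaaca
Txk, chr5:73144017-73144266, minus strand: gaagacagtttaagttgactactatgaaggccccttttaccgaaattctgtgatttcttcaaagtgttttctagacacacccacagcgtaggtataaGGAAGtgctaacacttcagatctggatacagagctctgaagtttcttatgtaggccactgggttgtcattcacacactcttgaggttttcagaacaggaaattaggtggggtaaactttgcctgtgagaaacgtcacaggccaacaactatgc
Tec, chr5:73259688-73259937, minus strand: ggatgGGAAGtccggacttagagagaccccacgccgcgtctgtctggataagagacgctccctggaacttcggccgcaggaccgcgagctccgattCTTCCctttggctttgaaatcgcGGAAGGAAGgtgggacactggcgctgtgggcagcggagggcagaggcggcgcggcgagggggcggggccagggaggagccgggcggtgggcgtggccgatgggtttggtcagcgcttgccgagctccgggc
The core occurred at 4 positions before Zap70, at 1 before Txk and at 4 before Tec, of which a pair overlaps. It is a common string, present in 64.1% of all 32851 windows of this length in the RefSeq table. The T-box core AGGTGT, present in 11.8% of windows, and the RUNX site TGTGGT, present in 14%, occurred on neither strand in the 3 windows. These are matches of letters in a short window and say nothing about binding.

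To set the kinases against one another, their levels were divided by the length of their annotated exons. Lck was the most abundant in all 6 groups, at 853.6 ± 71.6 CPM per kb (SD, n = 3) in WT NKT1, 766.4 ± 76.3 in WT NKT2 and 582.7 ± 56.2 in WT NKT17. Zap70 and Csk followed at 170.3 to 338.8 CPM per kb as group means, Txk at 42.3 to 139.5 and Fyn at 29.8 to 51.2. Tec was far lower, at 2.64 to 9.36 CPM per kb, and Syk lowest, at 0.013 to 0.426. In WT NKT17 the per-kb level of Zap70 was 338.8 ± 29.4 against 249.7 ± 10.4 for Csk, whereas in SKG NKT17 the values were 226.2 ± 27.6 and 223.8 ± 9.46.

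**Figure D1:**
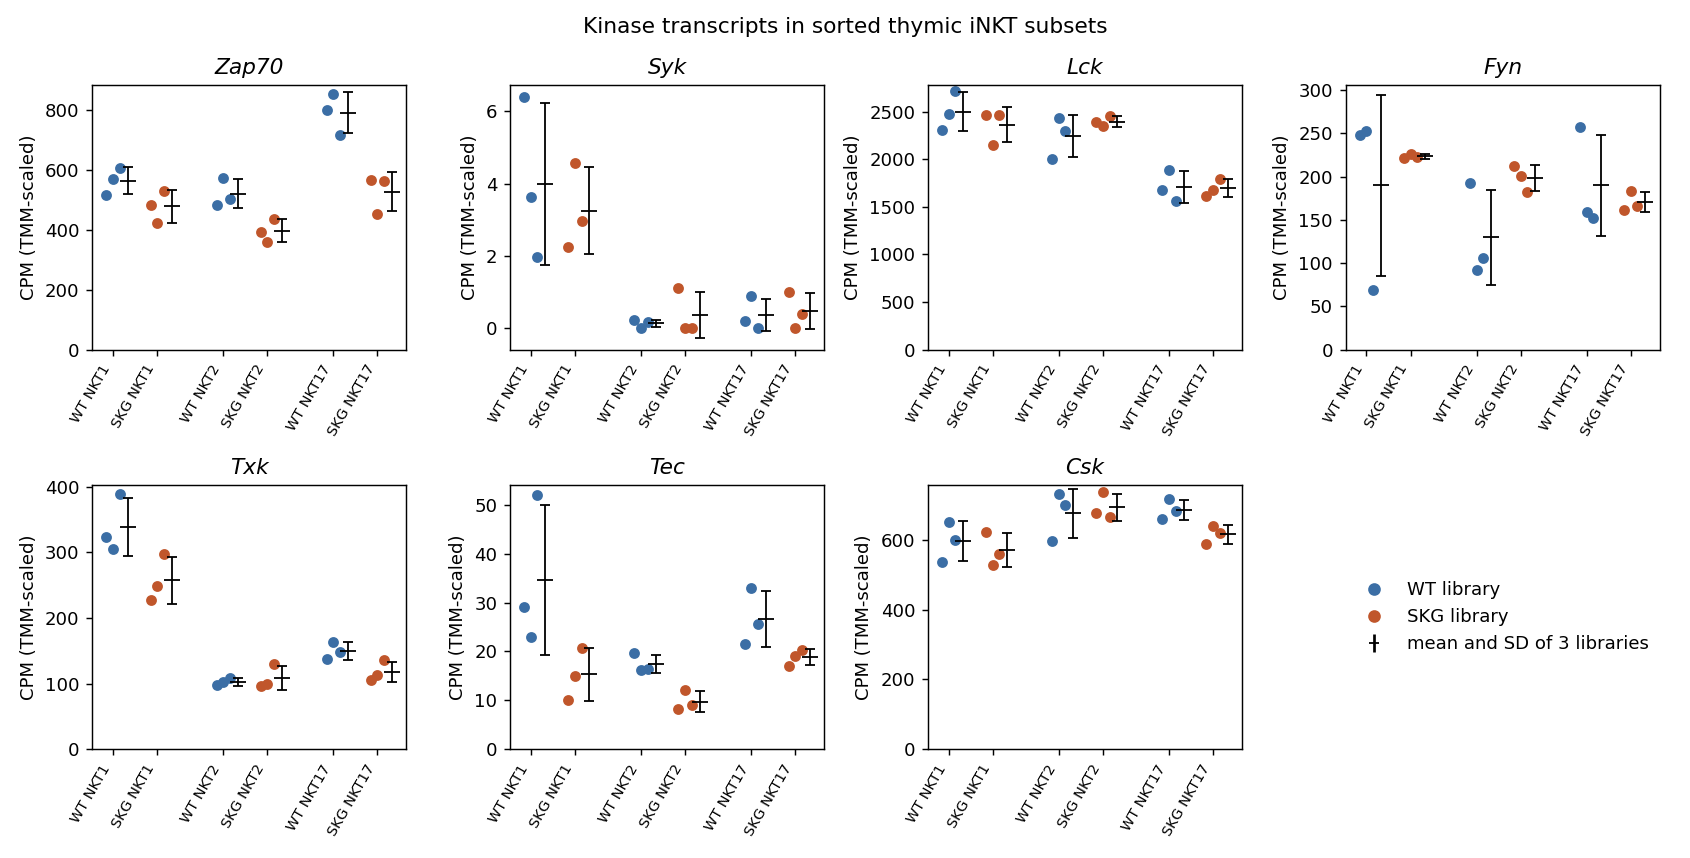
CPM of each kinase gene in each of the 18 libraries, by group (blue, WT; orange, SKG; black, mean and SD of 3 libraries; every panel but that of Syk starts at 0, and panels differ in scale). Zap70 was highest in WT NKT17 (716.0 to 851.5 CPM), Txk in NKT1 of both genotypes (226.5 to 387.9 CPM), and Lck lowest in NKT17 (1560.9 to 1885.1 CPM).

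Zap70, the kinase altered in SKG mice, was examined first. The mutation is a single base and cannot be read from gene counts, so the Zap70 level measures transcript abundance and not the allele. In WT NKT17 the 3 libraries had 800.6, 851.5 and 716.0 CPM, and in SKG NKT17 they had 564.8, 452.8 and 563.6. In WT NKT2 the values were 482.8, 573.9 and 502.8, and in SKG NKT2 393.8, 360.2 and 436.1. Within NKT17 and within NKT2, every SKG library lay below every WT library. In NKT1 the WT libraries had 516.1, 568.6 and 605.4 CPM and the SKG libraries 482.5, 421.0 and 528.6, and the ranges overlapped.

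The difference between SKG and WT in Zap70 was a log2 fold change of -0.58 ± 0.12 (SE) in NKT17 (edgeR adjusted p = 0.00174), just under the fold minimum. It was -0.39 ± 0.12 in NKT2 (adjusted p = 0.0378, 1.31-fold) and -0.24 ± 0.11 in NKT1 (adjusted p = 0.360). Averaged over the subsets it was -0.40 ± 0.066 (adjusted p = 0.000152, 1.32-fold), and the SKG group mean was below that of WT in all 3 subsets. Zap70 in NKT17 was called by DESeq2 (log2 fold change -0.59, adjusted p = 3.81e-05) and also without SKG NKT17 replicate 1 (-0.63), without SKG NKT17 replicate 3 (-0.63) and without WT NKT17 replicate 3 (-0.64), each of which moved the value past the fold minimum. The mean over subsets stayed under an adjusted p of 0.1 and under the fold minimum in all 24 alternatives, between -0.51 and -0.36.

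Tec, a kinase of the adaptor complex that gives its name to its family, had the largest fold between the genotypes among the 7 kinases in NKT1 and for the mean of subsets, though not in NKT2 or NKT17. In WT NKT1 the libraries had 29.0, 22.9 and 51.9 CPM, and in SKG NKT1 10.0, 15.0 and 20.8. In NKT2 they had 19.6, 16.3 and 16.5 in WT and 8.15, 12.1 and 8.99 in SKG. In NKT17 they had 21.5, 32.9 and 25.7 in WT and 17.0, 19.0 and 20.3 in SKG. In each of the 3 subsets, every SKG library lay below every WT library, by a narrow margin in NKT17.

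Tec fell in SKG NKT1 by 1.18 on the log2 scale (SE 0.29, 2.26-fold, adjusted p = 0.0298). The log2 fold change was -0.83 ± 0.31 in NKT2 (adjusted p = 0.105) and -0.51 ± 0.29 in NKT17 (adjusted p = 0.332), and neither passed. In NKT2 the call was gained with DESeq2, RLE scaling, upper-quartile scaling, a mean of at least 50 counts, only the libraries compared and the replicate block (-1.01, adjusted p = 0.0517 under the block), with adjusted p-values of 0.0517 to 0.277 over 13 alternatives. Averaged over the subsets Tec fell by 0.84 ± 0.17 (1.79-fold, adjusted p = 0.00152), and this call held in all 24 alternatives, at adjusted p-values of 8e-05 to 0.00506. The call in NKT1 alone was less firm: it was lost without WT NKT1 replicate 3 (-0.76, adjusted p = 0.203), without SKG NKT1 replicate 1 (-0.93, adjusted p = 0.179), without SKG NKT1 replicate 2 (-1.14, adjusted p = 0.117) and in a fit of the 6 NKT1 libraries only (-1.15, adjusted p = 0.190). Tec rested on 37 to 293 counts per library. Myeloid cells also express Tec, and the summed level of 5 myeloid markers was 3.98 to 12.4 CPM in WT NKT1 and 0.866 to 3.53 in SKG NKT1, where Csf1r, Itgam and Cd14 were at 0 in both and the sum came from Fcgr3 and Lyz2. In NKT2 the sums were 6.95 to 19.9 CPM in WT and 4.89 to 12.1 in SKG, and Fcgr3 alone was 5.93 to 7.92 in WT and 3.92 to 4.18 in SKG. In NKT17 the sums were 2.09 to 3.57 in WT and 1.74 to 4.39 in SKG. Their part in the Tec differences was not tested.

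Txk, the Tec family kinase most abundant in these cells, was lower in SKG NKT1, at 226.5, 248.9 and 296.6 CPM against 322.6, 304.9 and 387.9 in WT. In NKT17 it was 104.7, 113.2 and 135.3 in SKG against 137.2, 163.6 and 148.0 in WT. The ranges did not overlap in either subset, and in NKT2 they did, at 96.9 to 129.1 in SKG and 97.3 to 108.8 in WT. The log2 fold changes were -0.40 ± 0.13 in NKT1 (adjusted p = 0.138), -0.35 ± 0.14 in NKT17 (adjusted p = 0.127) and 0.079 ± 0.14 in NKT2 (adjusted p = 0.811). None passed, and the mean over subsets, -0.22 ± 0.078 (adjusted p = 0.0618), was below the fold minimum.

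Lck, which phosphorylates the ITAMs, and Csk, its inhibitor, differed little between SKG and WT. Averaged over the subsets the log2 fold change of Lck was -0.0003 with a 95% interval of -0.12 to 0.12, and that of Csk was -0.061 with an interval of -0.18 to 0.057. These intervals leave out a change of 1.5-fold in either direction. In single subsets the log2 fold changes were -0.083 to 0.094 for Lck and -0.16 to 0.036 for Csk, with adjusted p-values of at least 0.390.

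Fyn, the other Src family kinase of T cells, was too variable for a statement of this kind. WT NKT1 libraries had 248.0, 252.6 and 68.7 CPM, whereas the SKG NKT1 libraries were within 221.5 to 226.6. WT NKT2 libraries had 192.9, 91.4 and 105.9 CPM against 181.8 to 212.3 in SKG NKT2. The low WT NKT1 library, replicate 3, had 388 Fyn counts at a total of 6086437. The coefficient of variation of Fyn was 30.9% to 55.3% in the WT groups and 1.26% to 7.77% in the SKG groups. The mean log2 fold change over subsets was 0.23 with an interval of -0.27 to 0.73 (adjusted p = 0.583), and without WT NKT1 replicate 3 the value in NKT1 went from 0.23 to -0.16. Fyn overlaps 3 annotated genes on the opposite strand (chromosome 10, 39088661 to 39285187, plus strand) but shares no exon base with them.

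Syk, the relative of Zap70, showed no difference between genotypes that could be resolved. NKT1 libraries held 53, 19 and 11 Syk counts in WT and 12, 22 and 17 in SKG, and the ratio of SKG to WT over the summed counts was 0.738 with an exact 95% counting interval of 0.510 to 1.06. Counting intervals cover counting error only, since PCR copies are not separate molecules. In the other 12 libraries Syk had 0 to 7 counts.

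Of the 7 kinases, edgeR called 1 in NKT1 (Tec), against 3.27% of all genes tested, with 3 members at an unadjusted p under 0.05. In NKT2 it called 0, against 7.95% of all genes, with 2 members at an unadjusted p under 0.05 and 1 call by DESeq2 (Tec). In NKT17 it called 0, against 8.37%, with 2 members at an unadjusted p under 0.05 and 1 call by DESeq2 (Zap70). For the mean of subsets it called 1 (Tec), against 8.24%, with 3 members at an unadjusted p under 0.05. With 7 members, these counts were not read as different from the shares of all genes.

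**Figure D2:**
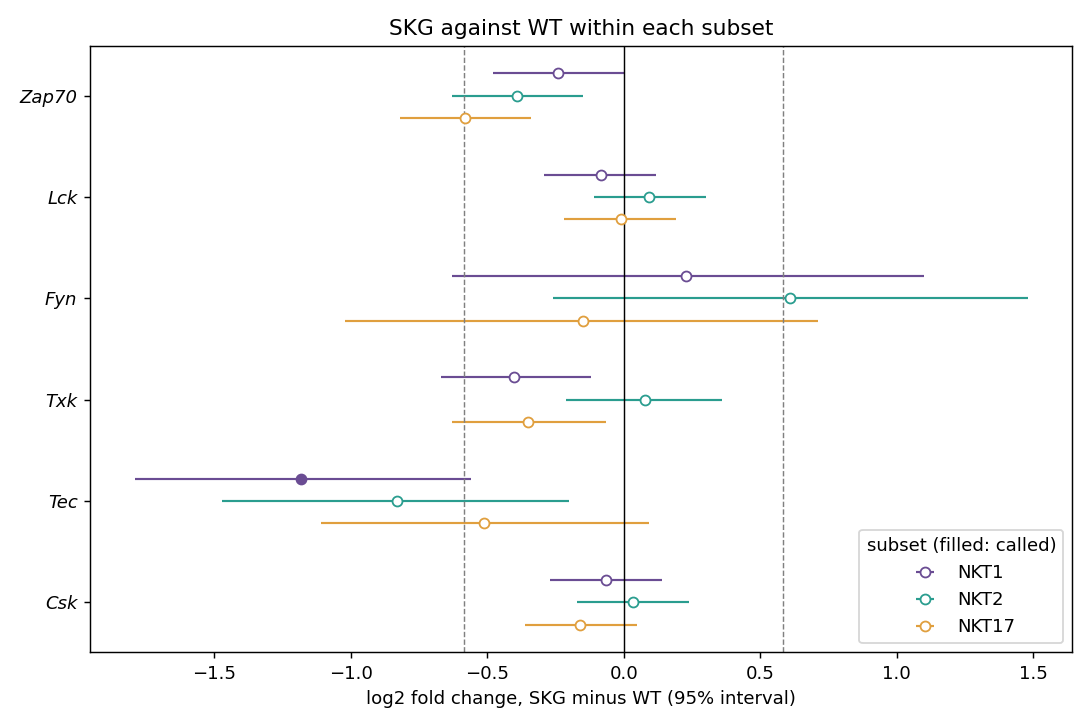
Log2 fold change of SKG against WT for 6 kinases in NKT1, NKT2 and NKT17, with 95% intervals (filled, called; dashed lines, 1.5-fold; Syk is left out because most of its counts are near 0). The estimates for Zap70 and Tec lay below 0 in all 3 subsets, and Lck and Csk stayed within -0.16 to 0.094.

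Whether the SKG effect differed between subsets was tested as an interaction. For Zap70, the effect in NKT17 minus that in NKT1 was -0.34 on the log2 scale (95% interval -0.68 to -0.0073, adjusted p = 0.324). For Tec, the effect in NKT17 minus that in NKT1 was 0.67 ± 0.41 (adjusted p = 0.498). For Txk, the effect in NKT2 minus that in NKT1 was 0.47 ± 0.19 (adjusted p = 0.243), and that in NKT17 minus that in NKT2 was -0.43 ± 0.19 (adjusted p = 0.414). No member was called by edgeR or DESeq2 in any interaction, and each interaction had 1 member at an unadjusted p under 0.05. Over all genes, 3.87% were called for NKT2 minus NKT1, 4.17% for NKT17 minus NKT1 and 2.19% for NKT17 minus NKT2.

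The subsets were then compared within each genotype. In WT, Txk libraries of NKT1 had 322.6, 304.9 and 387.9 CPM, against 97.3 to 108.8 in NKT2 and 137.2 to 163.6 in NKT17, and no libraries overlapped. Txk was 3.30-fold higher in NKT1 than in NKT2 (log2 fold change 1.72 ± 0.14, adjusted p = 1.61e-09) and 2.26-fold higher than in NKT17 (1.18 ± 0.14, adjusted p = 3.67e-07). In SKG the same comparisons gave 2.37-fold (1.25 ± 0.14, adjusted p = 3.02e-07) and 2.19-fold (1.13 ± 0.14, adjusted p = 9.02e-07). These 4 calls held in every alternative run. The difference of NKT17 from NKT2 in Txk was 0.54 ± 0.14 in WT (adjusted p = 0.005), under the fold minimum except without WT NKT17 replicate 1 (0.61, adjusted p = 0.00552), and it was 0.12 ± 0.14 in SKG (adjusted p = 0.638).

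Syk was higher in NKT1 than in the other subsets. It passed the filter on low counts only through the NKT1 libraries, so its calls against other subsets follow in part from that filter and are given as a description. In WT the summed counts were 83 in NKT1, 2 in NKT2 and 6 in NKT17, and scaled for depth NKT1 exceeded NKT2 36.4-fold (exact 95% counting interval 9.76 to 305.4) and NKT17 13.1-fold (5.77 to 36.7). In SKG the sums were 51, 5 and 9, for ratios of 10.1 (4.08 to 32.6) and 6.44 (3.14 to 14.9). The edgeR adjusted p-values were 0.00444 and 0.0169 in WT and 0.0437 and 0.0560 in SKG. The SKG calls were lost without SKG NKT1 replicate 2 and without some libraries of the other subset, namely SKG NKT2 replicate 2 or 3 (adjusted p of 0.127 to 0.178 over these fits) and SKG NKT17 replicate 2 or 3 (0.153 to 0.187). B cells and myeloid cells express Syk strongly. The 6 B cell markers summed to 1.24 to 2.41 CPM in WT NKT1, 0.323 to 1.02 in WT NKT2 and 7.82 to 11.1 in WT NKT17, and to 2.95 to 5.95, 0.392 to 0.803 and 24.8 to 40.7 in SKG, with Pax5 at 0 in every group. Most of the sum in NKT1 was Cd79b, at means of 1.62 CPM in WT NKT1 and 0.117 in WT NKT2, and of 4.51 and 0.0535 in SKG. The myeloid sums are those given above for Tec. The part of these cells in the Syk levels was not tested. Even in NKT1 the level of Syk was 3.99 ± 2.25 CPM in WT and 3.25 ± 1.21 in SKG, against 563.4 ± 44.9 and 477.4 ± 54.0 for Zap70 in the same libraries.

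Zap70 was highest in NKT17 of WT mice. It was 1.52-fold higher there than in NKT2 (log2 fold change 0.60 ± 0.12, adjusted p = 0.000378) and also higher than in NKT1 (NKT1 minus NKT17 -0.49 ± 0.11, adjusted p = 0.00224), and only the first passed the fold minimum. Without WT NKT2 replicate 1, WT NKT2 replicate 3 or WT NKT17 replicate 2 the first value was 0.55 to 0.57 and dropped below that minimum, with adjusted p-values of 0.00374, 0.00467 and 0.00259. In SKG the difference of NKT17 from NKT2 was 0.41 ± 0.12 (adjusted p = 0.0118) and that of NKT1 from NKT17 was -0.14 ± 0.11 (adjusted p = 0.412). In the order of group means, WT NKT17 stood alone, and the 5 groups below it, from WT NKT1 at 563.4 CPM to SKG NKT2 at 396.7, each overlapped their neighbor.

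Lck showed the opposite arrangement, with the lowest level in NKT17. WT NKT17 libraries had 1673.9, 1885.1 and 1560.9 CPM, WT NKT1 2302.5, 2477.4 and 2720.4, and WT NKT2 1999.3, 2436.3 and 2298.5. SKG NKT17 libraries had 1613.0, 1671.4 and 1795.0 CPM, SKG NKT1 2149.5 to 2467.0 and SKG NKT2 2343.8 to 2454.2. In both genotypes every NKT17 library lay below every library of the other subsets. NKT1 minus NKT17 was 0.55 ± 0.10 in WT (adjusted p = 0.000137) and 0.48 ± 0.10 in SKG (adjusted p = 0.000707), and NKT17 minus NKT2 was -0.40 ± 0.10 (adjusted p = 0.00476) and -0.50 ± 0.10 (adjusted p = 0.000572). None reached 1.5-fold, except NKT1 minus NKT17 in WT without WT NKT1 replicate 1 (0.61) or WT NKT17 replicate 2 (0.60).

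Tec, by contrast, was low in NKT2. In WT it was 1.98-fold higher in NKT1 than in NKT2 (0.99 ± 0.29, adjusted p = 0.0120), a call lost without WT NKT1 replicate 3 (0.56, adjusted p = 0.141). In SKG it was 1.92-fold higher in NKT17 than in NKT2 (0.94 ± 0.31, adjusted p = 0.0302), a call lost without SKG NKT2 replicate 1 (0.83, adjusted p = 0.112). The counterparts, NKT17 minus NKT2 in WT (0.61 ± 0.29, adjusted p = 0.148) and NKT1 minus NKT2 in SKG (0.65 ± 0.31, adjusted p = 0.157), did not pass, except in WT with only the libraries compared (0.63, adjusted p = 0.0845) and in SKG without SKG NKT1 replicate 1 (0.87, adjusted p = 0.0654).

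Csk was slightly lower in NKT1 than in NKT2 in SKG (-0.28 ± 0.10, adjusted p = 0.0471), under the fold minimum. The other log2 differences of Csk between subsets were -0.20 to 0.021, with adjusted p-values of at least 0.142. Fyn did not pass in any pair of subsets, although NKT1 minus NKT2 in WT, 0.55 ± 0.40 (adjusted p = 0.336), became 0.93 (adjusted p = 0.00895) without WT NKT1 replicate 3. In SKG, Fyn NKT1 minus NKT17 was 0.39 ± 0.40 (adjusted p = 0.543), under the fold minimum. It was also 0.39 with only the libraries compared, where the adjusted p was 0.00645.

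In WT, 3 of 7 members were called between NKT1 and NKT2 (Syk, Txk and Tec), against 27.5% of all genes, 2 between NKT1 and NKT17 (Syk and Txk), against 24.7%, and 1 between NKT17 and NKT2 (Zap70), against 20.0%. In SKG, 2 were called between NKT1 and NKT2 (Syk and Txk), against 18.7%, 2 between NKT1 and NKT17 (Syk and Txk), against 22.8%, and 1 between NKT17 and NKT2 (Tec), against 18.8%. The calls of Syk among them follow in part from the filter, as said above. These counts, too, were not read as different from the shares of all genes.

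**Figure D3:**
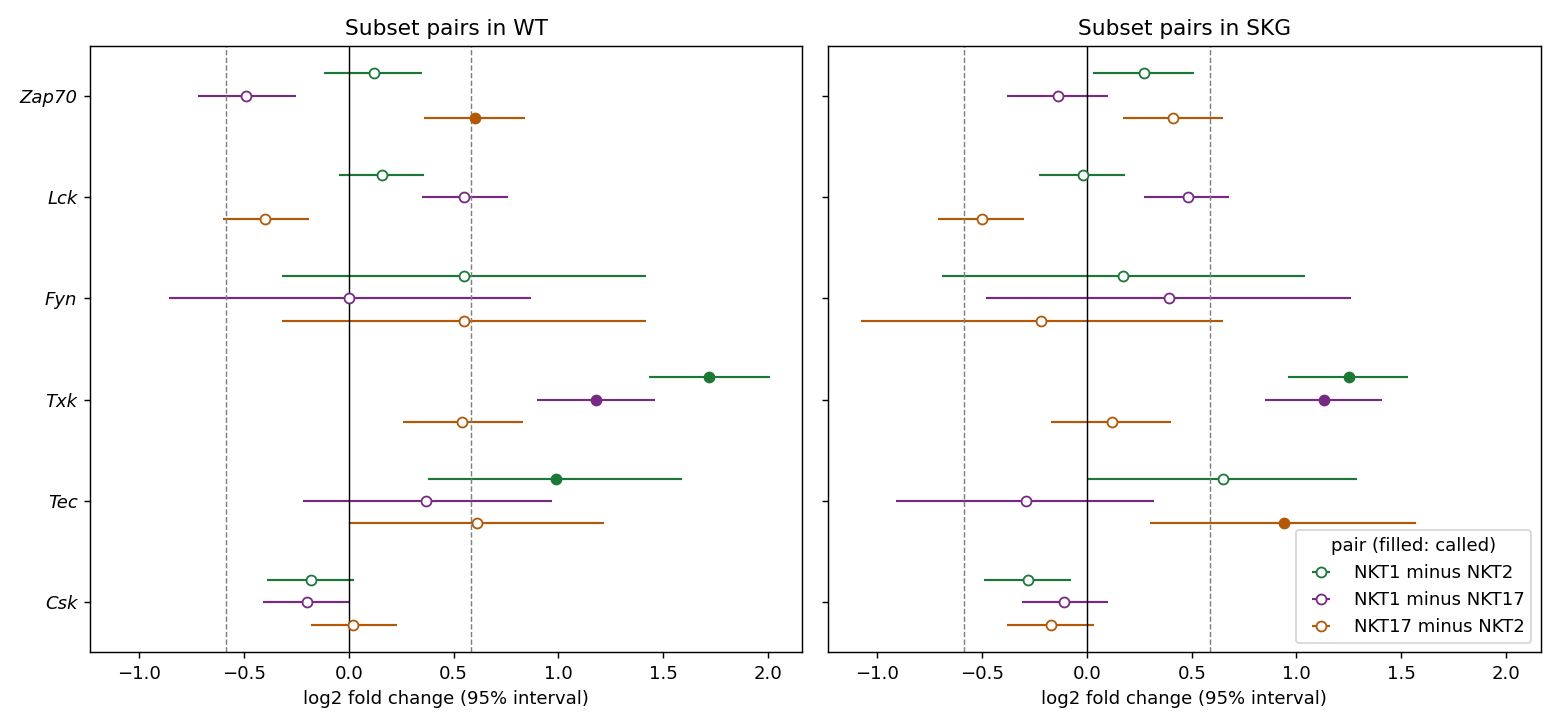
Log2 fold change between pairs of subsets for 6 kinases, in WT (left) and SKG (right), with 95% intervals (filled, called; dashed lines, 1.5-fold). Txk was higher in NKT1 in both genotypes by 1.13 to 1.72, and Lck was lower in NKT17 by an amount under 1.5-fold.

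Ratios of 2 kinases within a library do not depend on the scaling factors. Where Syk had 0 counts, however, its ratio to Zap70 was set by the pseudocount of 0.5 and so followed depth. Exact two-sided permutation was used for 12 comparisons of ratios, with p-values adjusted over the 12. The count of Lck relative to that of its inhibitor Csk was 4.29, 3.80 and 4.53 in WT NKT1, 3.35, 3.33 and 3.28 in WT NKT2, and 2.54, 2.63 and 2.29 in WT NKT17. In SKG it was 3.95, 4.07 and 4.41, then 3.53, 3.18 and 3.68, then 2.75, 2.62 and 2.90. The libraries thus fell in the same order of subsets in both genotypes, with no overlap between subsets within a genotype. The ratio was 1.23-fold higher in NKT1 than in NKT2, 1.60-fold higher in NKT1 than in NKT17 and 1.30-fold lower in NKT17 than in NKT2 (each exact permutation p = 0.005, the smallest that this design can give, adjusted p = 0.012). SKG and WT differed by 0.062 in the log2 ratio (exact permutation p = 0.186, adjusted p = 0.318).

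The count of Syk relative to Zap70 was higher in NKT1 than in NKT2 by 3.92 and than in NKT17 by 3.79 on the log2 scale (each exact permutation p = 0.005, adjusted p = 0.012). Syk passed the filter only through the NKT1 libraries, so these values, too, are given as a description. Over 19 alternatives, including a pseudocount of 1, they ranged from 3.3 to 4.55 and from 3.34 to 4.23. The ratio of Syk to Zap70 did not differ detectably between SKG and WT (0.54, exact permutation p = 0.431, adjusted p = 0.517). The count of Fyn relative to Lck gave no adjusted p under 0.05, the lowest being that of NKT17 minus NKT2 (0.63, exact permutation p = 0.025, adjusted p = 0.050), which fell below 0.05 without WT NKT2 replicate 1 (0.83, adjusted p = 0.012) or SKG NKT17 replicate 3 (0.66, adjusted p = 0.040).

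**Figure D4:**
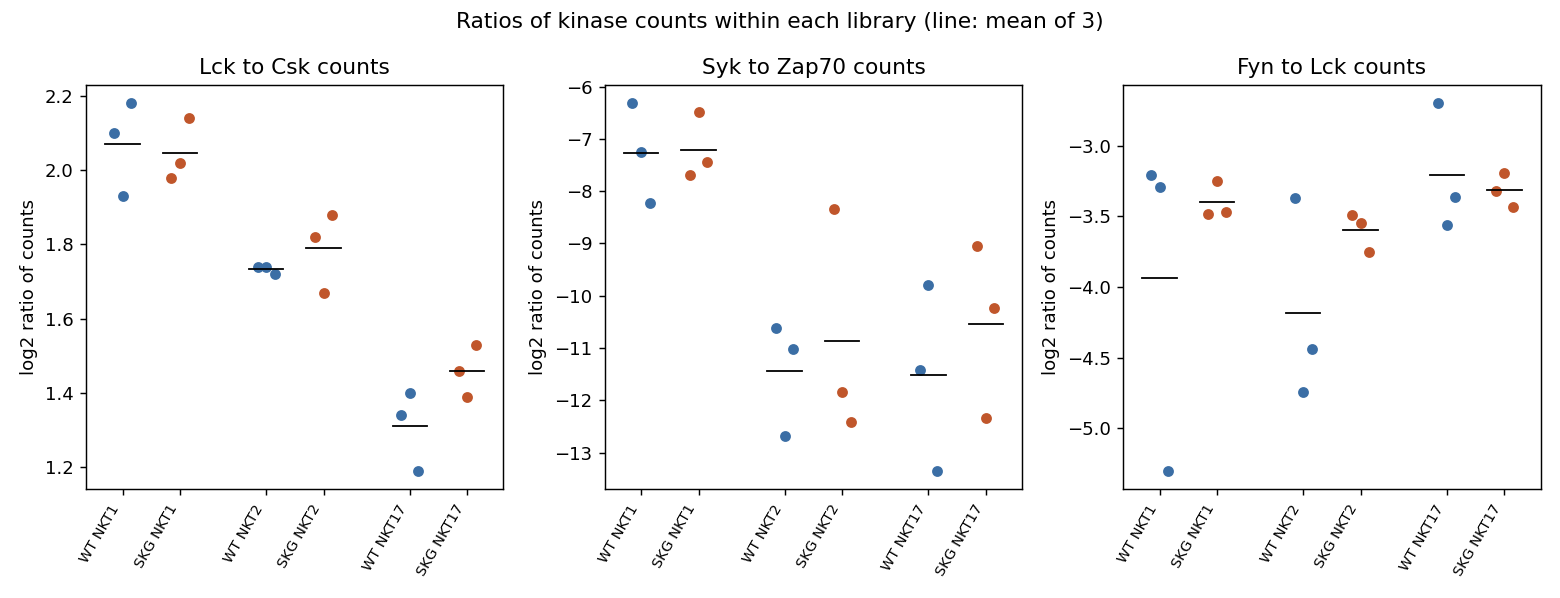
Log2 ratio of the counts of 2 kinases within each library, by group (blue, WT; orange, SKG; line, mean of 3 libraries; axes do not start at 0). Lck relative to Csk had group means of 2.07 and 2.05 in NKT1, 1.73 and 1.79 in NKT2, and 1.31 and 1.46 in NKT17, for WT and SKG.

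The members did not vary as one block. Across the 18 libraries, which share groups, the largest Pearson correlations between members on log2 CPM were 0.81 for Syk with Txk and 0.67 for Zap70 with Tec, and the lowest was -0.71 for Syk with Csk. These describe the libraries and were not tested. Outside the members, the gene with the pattern most like Zap70 was Lax1, an adaptor of lymphocytes that limits antigen receptor signaling, at r = 0.96 over 18 libraries. Lax1 had group means of 688.5 CPM in WT NKT17 and 347.3 in SKG NKT17, and 334.5 and 225.2 in NKT2. St14 (r = 0.89) and 2310015A10Rik (r = 0.89) came next. For Txk the 3 closest were Klhl25 (0.97), Il2rb (0.95), which encodes the β chain of the IL-2 and IL-15 receptors, and Dennd4a (0.95). For Lck they were Sp110 (0.95), Emid1 (0.93) and Prkch (0.93), for Tec Ube2l6 (0.86), Naprt1 (0.85) and 2010002N04Rik (0.82), and for Csk Morf4l1 (0.89), Susd4 (0.86) and Psmc5 (0.85). For Syk they were Gm12253 (0.92), Emilin2 (0.91) and Ppp1r18 (0.91), and for Fyn Etnk1 (0.96), Rnf220 (0.95) and Rab5a (0.95).

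The genes around these kinases were examined through 5 lists with 59 genes, 57 of them tested. Between SKG and WT, 7 were called in NKT1 (3 higher and 4 lower in SKG), against 3.27% of all genes, 12 in NKT2 (8 and 4), against 7.95%, and 13 in NKT17 (6 and 7), against 8.37%. No test of the lists was made. In NKT1 the smallest adjusted p-values belonged to Themis, an adaptor of thymocyte selection, at 19.3 ± 3.55 CPM in SKG and 0.118 ± 0.205 in WT (adjusted p = 1.07e-06), and to Matk, a kinase related to Csk, at 10.9 ± 1.90 and 1.99 ± 1.16 (adjusted p = 1.94e-05). In NKT2 they belonged to Sit1, a transmembrane adaptor, at 166.6 ± 22.2 in SKG and 84.2 ± 5.6 in WT (adjusted p = 1.25e-05), and to Ubash3a, a suppressor of TCR signaling, at 53.8 ± 6.16 and 20.8 ± 4.09 (adjusted p = 0.000142). In NKT17 they again included Ubash3a, at 13.1 ± 2.45 in SKG and 1.37 ± 0.972 in WT (adjusted p = 3.92e-07), and Themis, at 39.4 ± 10.5 and 4.88 ± 3.30 (adjusted p = 8.51e-06). Averaged over the subsets, Themis was higher in SKG by 3.97 ± 0.26 on the log2 scale (adjusted p = 2.6e-09) and Ubash3a by 1.53 ± 0.14 (adjusted p = 6.86e-08). Ubash3a was not called in NKT1, where it was most abundant, at 183.8 ± 13 CPM in SKG and 173.7 ± 29.9 in WT. Its SKG effect exceeded that in NKT1 by 3.06 ± 0.37 in NKT17 (edgeR adjusted p = 3.02e-05) and by 1.29 ± 0.29 in NKT2 (adjusted p = 0.0121). Double-positive thymocytes express Themis, and the summed level of 6 of their markers was 14.3 to 47.5 CPM in SKG NKT17 against 5.27 to 12.5 in WT NKT17, with Rag1, Rag2 and Dntt at 0 in both, but 0.929 to 4.5 in SKG NKT1 against 2.78 to 13.8 in WT NKT1. Their part in the difference in NKT17 was not tested.

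By role, and beside the same 3.27%, 7.95% and 8.37% of all genes called in NKT1, NKT2 and NKT17, the list of 9 TCR, coreceptor and ITAM chains had 0 genes higher and 1 lower in SKG NKT1 (Fcer1g), 0 and 1 in NKT2 (Cd247), and 1 and 1 in NKT17 (Cd8b1 higher, Cd247 lower). Cd247, the ζ chain on which ZAP70 docks, fell from 1652.0 ± 308.4 to 971.8 ± 110.5 CPM in NKT2 (adjusted p = 0.000213) and from 853.7 ± 117.6 to 447.5 ± 27.5 in NKT17 (adjusted p = 2.17e-05), and like the other genes of this list was chosen for mention after its values were seen. Of 19 substrates and adaptors, 1 rose and 1 fell in NKT1, 2 rose and 1 fell in NKT2, and 3 rose and 1 fell in NKT17, with median log2 fold changes of -0.014, 0.24 and 0.26, against -0.0067, -0.0036 and 0.0045 over all genes. Of 12 phosphatases and ubiquitin ligases, 0 rose and 1 fell in NKT1, 2 rose and 0 fell in NKT2, and 1 rose and 2 fell in NKT17, with medians of -0.10, 0.17 and -0.067. Of 6 effectors, 1, 3 and 0 rose and 0 fell, with medians of 0.25, 0.77 and 0.089.

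Among 13 other cytoplasmic tyrosine kinases, 11 of them tested, 1 rose and 1 fell in NKT1, 1 rose and 2 fell in NKT2, and 1 rose and 3 fell in NKT17. They included Blk, a Src family kinase best known from B cells, which was 2002.0 ± 79.1 CPM in WT NKT17 and 827.6 ± 145.7 in SKG NKT17 (log2 fold change -1.27 ± 0.22, adjusted p = 0.00118). Lyn, another Src family kinase, was 27.0 ± 1.79 CPM in WT NKT1 and 4.30 ± 1.61 in SKG NKT1 (-2.64 ± 0.52, adjusted p = 0.00462). Src was 1.00 ± 0.495 CPM in WT NKT17 and 13.5 ± 2.49 in SKG NKT17 (3.69 ± 0.63, adjusted p = 0.000376). These 3 were chosen for mention after their values were seen. Beside Blk, the summed level of the 6 B cell markers was 24.8 to 40.7 CPM in SKG NKT17 against 7.82 to 11.1 in WT NKT17, with Pax5 at 0 in both groups. Beside Lyn, which myeloid cells also express, stand the myeloid sums given above for Tec in NKT1. The part of either in these differences was not tested.

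Between subsets, both the calls among the 57 genes and the shares of all genes called were higher than between SKG and WT. In WT, 30 were called between NKT1 and NKT2 (20 higher in NKT1), against 27.5% of all genes, 32 between NKT1 and NKT17 (20 higher in NKT1), against 24.7%, and 24 between NKT17 and NKT2 (10 higher in NKT17), against 20.0%. In SKG, 22 were called between NKT1 and NKT2 (14 higher in NKT1), against 18.7%, 32 between NKT1 and NKT17 (19 higher in NKT1), against 22.8%, and 22 between NKT17 and NKT2 (8 higher in NKT17), against 18.8%.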

How the data were processed

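Sorted NKT1, NKT2 and NKT17 cells from thymus of WT and SKG mice were profiled by poly-A RNA-seq of the Smart-seq2 kind. The deposited table holds raw read counts per gene symbol, which the authors made with TopHat and htseq-count in union mode, after removing rRNA, tRNA, adapter, spike-in and low-complexity reads. The submitters' processing notes name TopHat 1.4.1, Bowtie 1.0.0 and HTSeq 0.7.1. The study's methods name the mm9 genome, whereas the notes name other builds, so coordinates are given from the GENCODE M1 annotation of NCBIM37 and not from the counting itself. The library preparation does not mark strand. Of the columns, 18 were joined to samples by title, and 2 of no listed sample were not used.

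Genes were kept with filterByExpr by group. Scaling used TMM, with factors from 0.928 to 1.07. A robust quasi-likelihood model of the 6 groups (12 residual degrees of freedom) was fitted with edgeR 4.0.16 in R 4.3.3. Each of these alternatives was run alone: DESeq2 1.42.0, RLE scaling, upper-quartile scaling, no filter, a filter on the mean count (50 or more), a stricter adjusted p (0.05), no fold minimum, a fit restricted to the groups compared, title tokens as a block, a pseudocount of 1 for ratios, and omission of each library. Tests were two-sided. Standard errors were the log2 fold change divided by the root of F, and intervals are 95%. Ratios of counts used a pseudocount of 0.5, and log2 CPM for correlations a prior count of 2. The pipeline was tested on simulated data. Libraries of a group differed by more than sampling noise (chi-square divided by its degrees of freedom, 5.47 to 24.4). Nothing says that libraries came from separate animals, so p-values measure the spread between these libraries, which may be partly technical.

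The members and lists were chosen with earlier results of these data known. Named are all members, the 3 genes most correlated with each, and, per comparison of SKG with WT, the 2 called genes of the lists with the smallest adjusted p, plus genes said to be chosen after their values were seen.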

Additional observations from a re-analysis of the deposited data

How the results depend on the processing

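Of 1144 log2 fold changes of the kinases under alternatives, 1053 kept their direction and side of the thresholds, 16 lost a call, 18 gained one and 57 changed sign, none of them among called values or values with an adjusted p under 0.1. The counts of kinases called changed as follows. DESeq2, RLE scaling and the replicate block each called 1 kinase in NKT2 (Tec) and 1 in NKT17 (Zap70) between SKG and WT. Tec was also the 1 call in NKT2 under upper-quartile scaling, with a mean of at least 50 counts and with only the libraries compared, and the last of these called 0 in NKT1 and 2 between NKT17 and NKT2 in WT, where upper-quartile scaling called 0. A mean of at least 50 counts removed Syk, leaving 1 call between NKT1 and NKT17 in each genotype, 1 between NKT1 and NKT2 in SKG and 2 in WT, and an adjusted p under 0.05 left 1 between NKT1 and NKT17 in SKG. Without a fold minimum, 1 was called in NKT2, 1 in NKT17, 3 for the mean of subsets, 4 between NKT1 and NKT17 in WT, 3 in each comparison of NKT1 with another subset in SKG, and 3 between NKT17 and NKT2 in each genotype.

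Under other scalings, filters and pseudocounts, the following values changed sign. Upper-quartile scaling gave -0.035 for Csk, NKT17 minus NKT2 in WT, and 0.0051 for the mean effect on Lck, which was 0.0015 with a mean of at least 50 counts. Fyn, NKT1 minus NKT17 in WT, was -0.008 with DESeq2, -0.005 with RLE, -0.047 with upper-quartile scaling and -0.016 with a mean of at least 50 counts. The ratio of Syk to Zap70, NKT17 minus NKT2, was -0.055 with a pseudocount of 1. The cause was not tested.

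Libraries share tokens in their titles, 3 per genotype, of which 2 (7_10 and 7_11) occur in both genotypes. Token 7_5 occurs only in WT and 7_21 only in SKG, so a block on tokens is partly confounded with genotype. Of 18 pairs with the same token and genotype, 12 had correlated deviations over 0.1 (median 0.17), and 0 of 18 pairs with the same token across genotypes did (median 0.0036), and as not every pair was over 0.1 the tokens were not taken as pairing, within or across genotypes. For 17 of 18 libraries the best partner of the same genotype shared the token, a hint from the data and not from the design. The replicate block changed no call of a kinase between subsets. Under the replicate block the SKG effect was -0.69 for Zap70 in NKT17 (adjusted p = 1e-04) and -1.01 for Tec in NKT2 (adjusted p = 0.0517), and signs changed for Csk in NKT2 (-0.0089), Fyn in NKT17 (0.19), Syk in NKT1 (0.54), Txk in NKT2 (-0.091) and Fyn, NKT1 minus NKT17 in WT (-0.035).

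With 1 library left out, counts of calls ranged from 0 to 1 in NKT1 and in NKT17 (SKG against WT), 0 to 2 between NKT17 and NKT2 in WT and 0 to 1 in SKG, 1 to 3 between NKT1 and NKT2 in SKG and 1 to 2 between NKT1 and NKT17 in SKG. Values that changed sign ranged as follows. For SKG against WT these were -0.13 to 0.027 (Csk, NKT1), -0.046 to 0.1 (Csk, NKT2), -0.16 to 0.51 (Fyn, NKT1), -0.28 to 0.12 (Fyn, NKT17), -0.063 to 0.063 (Lck, NKT17), -0.018 to 0.033 (Lck, mean), -0.63 to 0.23 (Syk, NKT1), -2.72 to 1.97 (Syk, NKT2), -0.83 to 2.25 (Syk, NKT17), -0.85 to 1.1 (Syk, mean) and -0.072 to 0.15 (Txk, NKT2). Between subsets they were -0.06 to 0.071 (Csk, NKT17 minus NKT2, WT), -0.27 to 0.4 (Fyn, NKT1 minus NKT17, WT), -0.063 to 0.041 (Lck, NKT1 minus NKT2, SKG), -0.79 to 4.55 and -0.43 to 1.99 (Syk, NKT17 minus NKT2, SKG and WT), -0.04 to 0.58 (Tec, NKT1 minus NKT17, WT) and -0.31 to 0.75 (ratio of Syk to Zap70, NKT17 minus NKT2). Differences of the SKG effect ranged from -0.079 to 0.63 (Tec, NKT2 minus NKT1) and from -0.087 to 0.16 (Txk, NKT17 minus NKT1).

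Pathway genes called between SKG and WT went from 13 to 8 in NKT17 with a mean of at least 50 counts and to 20 without a fold minimum, and from 12 to 19 in NKT2 without a fold minimum or with only the libraries compared. Depth limits Syk, at 0 to 7 counts outside NKT1, and Tec, at 37 to 293.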
